A study of Mus musculus with 6 samples.

Results

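Integrins are receptors made of 1 alpha and 1 beta chain that span the cell membrane and tie the matrix outside to the actin skeleton inside. The 10 genes described here encode chains that bind collagen, fibronectin or the latent form of TGF-beta, and they were chosen by gene symbol, with no threshold on their values but with earlier results of these data known. All 10 matched exactly 1 Ensembl ID in the counts table, out of 55416 IDs in all, and all 10 passed the filter on low counts that left 17083 genes to test. RNA came from whole liver of male mice, with 3 libraries per genotype. Every animal carried Ephb2flox/flox alleles. The controls (WT) had no Cre, and the knockouts (KO) also carried PdgfrbCreERT2, a recombinase switched on by tamoxifen in cells that use the Pdgfrb promoter, which are hepatic stellate cells and other mesenchymal cells. Both genotypes received tamoxifen for 5 days at an age of 8 to 10 weeks and were then fed the CDAA high-fat diet for 8 weeks. This choline-deficient diet makes the liver fatty, inflamed and scarred, and 45% of its calories came from fat, with 0.1% methionine and 1% cholesterol. No group had Cre without the floxed alleles, so Cre and deletion cannot be told apart, and none had a normal diet.

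The chains pair in set combinations. α1β1 and α11β1 bind collagen, α5β1 binds the RGD motif of fibronectin, and α8β1 binds RGD ligands such as nephronectin. αv pairs with β1, β3, β5, β6 or β8. TGF-beta is secreted inside a latency peptide that carries an RGD motif, and αvβ6 and αvβ8 are the best known receptors that release the active cytokine from it. In liver, β6 and β8 are known from bile duct epithelium, α8 and α11 from mesenchymal cells, and β3 from platelets, endothelium and macrophages.

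Total counts ran from 21160690 to 26339251 per library, of which the 10 genes took 20939 to 31179. Hepatocyte markers, among them albumin, summed to 43202 to 58657 CPM (counts relative to the library total, scaled by TMM factors) in every library, as the label of liver implies. Ephb2, the targeted gene, stood at 9.46, 8.28 and 12.4 CPM across the WT livers and 6.01, 8.87 and 6.95 across the KO livers, so the genotypes overlapped (log2 fold change -0.46, SE 0.21, edgeR adjusted p = 0.850). Cells in which Cre is not active still transcribe it, so this whole-liver level checks the labels only weakly. The labels do not say how the replicates of a genotype relate, so p-values measure the spread between these libraries. Acute phase genes, which hepatocytes raise in inflammation, divided the libraries across the genotypes. Their mean log2 CPM was 10.82, 9.09 and 11.19 in WT and 9.20, 11.60 and 9.27 in KO replicates 1 to 3. Their part in the results below was not tested. Of markers of other cells, neutrophil genes had 0 of 7 tested higher in KO liver (median log2 fold change -0.69) and T and NK cell genes 7 of 7 (0.20). Of all genes tested, 49.0% lay higher. Every tested gene of these 2 lists overlapped between the genotypes, and 0 had an unadjusted p under 0.05 in edgeR. B cell genes had 2 of 4 higher (0.09), hepatocyte genes 1 of 8 (-0.05) and acute phase genes 2 of 11 (-0.20). No gene of any of these lists passed edgeR's test after adjustment. Of the acute phase genes, the smallest p fell to Saa2, a serum amyloid, at 1.24 (SE 1.5) and Fga, a fibrinogen chain, at -0.31 (SE 0.41). Of the hepatocyte genes, Pck1, an enzyme of glucose synthesis, stood at -0.70 (SE 0.19) without overlap.

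β1 and β5 were the most abundant of the 10 chains when counts were divided by the length of the gene's exons. Itgb1, the shared partner of most matrix-binding alpha chains, averaged 75.2 CPM per kilobase over the 6 libraries. Itgb5, the αv partner that binds vitronectin, averaged 73.9. These neighbours did not differ beyond their spread, since Itgb1 was higher in 5 of 6 libraries and their ranges overlapped. Itgav followed at 18.5 CPM per kilobase, Itga5 at 15.6 and Itga8 at 14.7. Itgav lay above Itga5 in all 6 libraries although their ranges overlapped, and Itga5 lay above Itga8 in 3 of 6. Itga1 came next at 6.99 CPM per kilobase, below the range of Itga8 and above that of Itgb8. Among the scarce chains, Itgb8 averaged 2.53, Itgb3 2.01 and Itgb6 1.37 CPM per kilobase, and each of these overlapped its neighbour. Itga11 was the lowest at 0.471 CPM per kilobase, below all values of Itgb6. Itgb1 thus stood 160-fold above Itga11, and Itgb5 stood 29.3-fold above Itgb8 and 53.9-fold above Itgb6. The length used joins the exons of all annotated transcripts, from 3.553 kilobases for Itgb5 to 18.599 for Itga1, so a gene with a long rarely used exon is set too low.

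**Figure D1:**
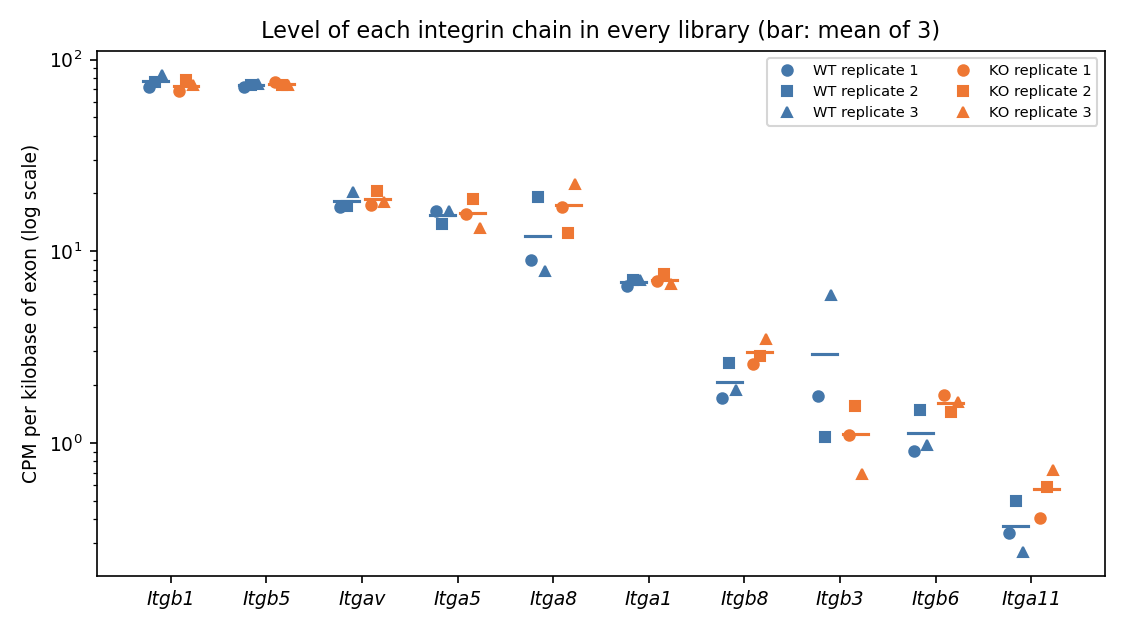
Level of each chain in CPM per kilobase of exon (log axis), 1 point per library, WT in blue and KO in orange, with a bar at the mean of 3 libraries. Itgb1 and Itgb5 lie between 68.4 and 83.4 in every library, while Itgb3 spreads from 0.687 to 5.89 and Itga8 from 7.91 to 22.5.

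The promoters of 3 of these beta chains are shown to set the most abundant chains, Itgb1 and Itgb5, which were nearly level across libraries, beside Itgb6, a scarce chain and 1 of the 2 with an unadjusted p under 0.05 between the genotypes. Each sequence is the stretch upstream of the RefSeq transcription start on GRCm38.p6, read 5′ to 3′ along the gene's strand. For Itgb6 the 40 bases next to the start, which GENCODE counts as exon, are left off. Capitals mark the letters of any motif searched on both strands: CAGAC (SMAD box), TGACTCA (AP-1 site), GGAATG (TEAD site), GGGCGG (GC box) and the TATA box with the letters TATAAA.
Itgb1, chr8:128685404-128685653, plus strand: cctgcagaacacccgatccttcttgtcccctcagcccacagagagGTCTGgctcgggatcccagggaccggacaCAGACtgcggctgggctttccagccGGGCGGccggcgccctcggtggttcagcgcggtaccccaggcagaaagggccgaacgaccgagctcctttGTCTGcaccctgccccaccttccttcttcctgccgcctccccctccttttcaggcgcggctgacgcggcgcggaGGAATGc
Itgb5, chr16:33829415-33829664, plus strand: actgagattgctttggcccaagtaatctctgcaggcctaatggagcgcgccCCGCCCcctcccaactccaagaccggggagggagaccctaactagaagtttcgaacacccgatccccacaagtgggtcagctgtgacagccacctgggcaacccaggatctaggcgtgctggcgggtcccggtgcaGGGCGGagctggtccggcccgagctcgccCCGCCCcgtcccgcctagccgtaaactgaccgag
Itgb6, chr2:60722644-60722853, minus strand: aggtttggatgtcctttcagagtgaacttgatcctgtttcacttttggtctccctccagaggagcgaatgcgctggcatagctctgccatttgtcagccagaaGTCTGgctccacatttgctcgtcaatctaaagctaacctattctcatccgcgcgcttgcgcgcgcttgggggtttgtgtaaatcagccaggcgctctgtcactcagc

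Over the full 250 bases upstream, the Itgb5 promoter held 18 CpG pairs, 65.2% G and C, and 3 GC boxes. The Itgb1 promoter held 21 CpG pairs, 68.0% G and C, 1 GC box, 3 SMAD boxes and 1 TEAD site. The Itgb6 promoter at this start held 11 CpG pairs, 52.0% G and C and 1 SMAD box, and it has another RefSeq start with 3 CpG pairs and none of the motifs. Over 32851 RefSeq promoters, the same length held a SMAD box in 42.2%, a GC box in 32.7%, a TEAD site in 12.6%, a TATA box in 12.4% and an AP-1 site in 4.5%, with a median of 6 CpG pairs and 52.4% G and C. The table held promoters of 9 of the 10 genes, all but Itgb3. These matches describe letters in a window and do not show binding.

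Between the genotypes the 10 chains fell into sets of unlike spread. The 5 steadiest chains were Itgav, Itgb1, Itga1, Itga5 and Itgb5, whose coefficient of variation over the 6 libraries was 1.98 to 12.8%, against 25.3 to 96.5% for the others. That spread takes both genotypes together, so chains chosen as steady by it must differ little between them. The log2 fold changes of these 5 ran from -0.08 to 0.04. The other chains were divided by the direction of their difference. Itga8, Itga11, Itgb6 and Itgb8, chains of mesenchymal cells and bile ducts, averaged 1.43 to 1.55 times the WT level in KO liver, with log2 fold changes from 0.51 to 0.63. Itgb3 averaged 0.382 times the WT level in KO liver, a value set by WT replicate 3 (log2 fold change -1.38, or -0.34 without that library). No member passed edgeR's quasi-likelihood test after Benjamini-Hochberg adjustment over all genes, where 0 of 17083 genes passed (0%). limma-voom also called 0 genes and DESeq2 called 8, none of them a member. Of the 10, 8 lay higher in KO liver, against 49.0% of all genes tested, and their median was 0.04 against -0.005 for all genes. At an unadjusted p under 0.05 stood 2 of 10, Itgb6 and Itgb8, against 5.19% of all genes. In none of the 10 did the CPM of the genotypes keep apart, against 11.1% of all genes. The number of positive members was 5 of 10 without WT replicate 1 or without KO replicate 2, and 9 of 10 by library size alone. With WT replicate 2 left out 5 members reached an unadjusted p under 0.05, against 10.7% of all genes, and with WT replicate 1 left out 1 did, against 3.8%. With WT replicate 3 or KO replicate 3 left out 0 members did, against 4.11% and 2.59% of all genes.

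**Figure D2:**
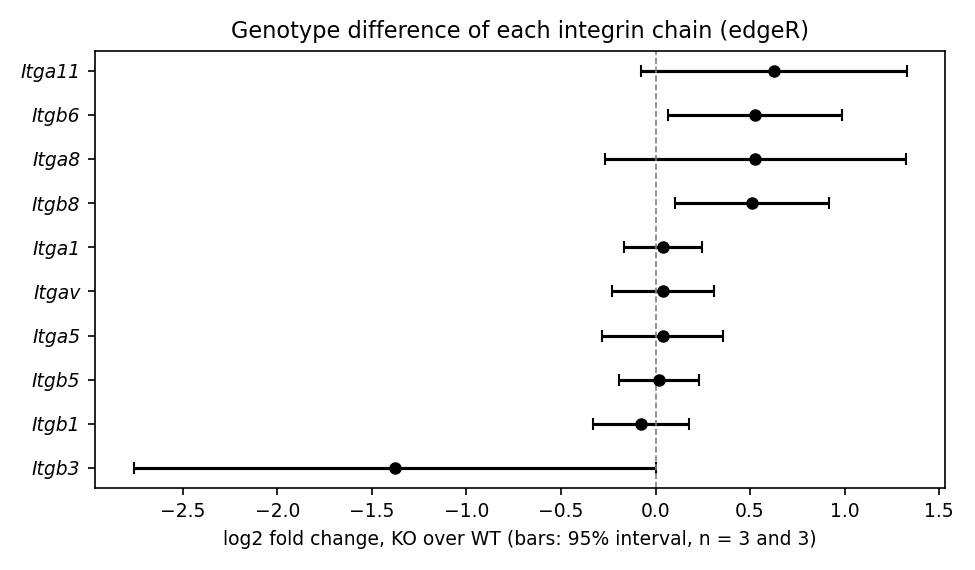
Log2 fold change of each chain, KO over WT, as points with 95% intervals from edgeR (3 libraries per genotype), with a dashed line at 0. The intervals of Itgav, Itgb1, Itga1, Itga5 and Itgb5 are short and span 0, those of Itgb6 and Itgb8 lie above 0 before adjustment, and that of Itgb3 runs from -2.76 to 0.005.

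Itgav (ENSMUSG00000027087), the alpha chain common to the receptors of latent TGF-beta, lies on chromosome 2 at positions 83724397 to 83806916 of GRCm38, plus strand. In replicates 1 to 3 its level was 182, 186 and 218 CPM across the WT livers and 187, 222 and 194 across the KO livers. WT replicate 3 and KO replicate 2 were the high libraries, so the genotypes overlapped. The log2 fold change was 0.04 (95% interval -0.23 to 0.31), and without KO replicate 2 it was -0.04. An antisense transcript, Gm13684, overlaps its exons and had no counts.

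Itgb1 (ENSMUSG00000025809; chromosome 8, 128685654 to 128733200, plus strand) stood at 293, 312 and 340 CPM across the WT livers and 279, 317 and 300 across the KO livers (279 to 340 overall). The groups overlapped, and the log2 fold change was -0.08 (95% interval -0.33 to 0.17), or 0.003 by library size alone. Itgb5 (ENSMUSG00000022817; chromosome 16, 33829665 to 33949338, plus strand) was the steadiest member, at 255, 262 and 266 CPM across the WT livers and 270, 263 and 261 across the KO livers. Its coefficient of variation over the 6 libraries was 1.98%, and its log2 fold change was 0.02 (95% interval -0.19 to 0.23). A change of the size seen in Itgb8 thus lies outside the intervals of Itgav, Itgb1 and Itgb5.

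Itga1 (ENSMUSG00000042284; chromosome 13, 114953096 to 115101964, minus strand), the collagen-binding chain found on stellate and endothelial cells, stood at 122, 132 and 131 CPM across the WT livers and 129, 141 and 125 across the KO livers. The groups overlapped, with a log2 fold change of 0.04 (95% interval -0.17 to 0.25). Gm49395 shares exon bases with it on the same strand and held at most 1.38% of its CPM. Itga5 (ENSMUSG00000000555; chromosome 15, 103344286 to 103366763, minus strand), the fibronectin receptor chain, stood at 80.2, 68.5 and 80.0 CPM across the WT livers and 76.7, 92.8 and 65.0 across the KO livers. Both extremes were KO libraries, and the log2 fold change was 0.04 (95% interval -0.28 to 0.36) and changed sign without WT replicate 2 or KO replicate 2.

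Itgb8 and Itgb6, the αv partners that release active TGF-beta, had the smallest p of the 10. Itgb8 (ENSMUSG00000025321) lies on chromosome 12 at 119158022 to 119238802, minus strand. It stood at 19.1, 29.0 and 21.0 CPM across the WT livers and 28.7, 31.5 and 38.3 across the KO livers. Only KO replicate 1 fell within the WT range, just below WT replicate 2. The log2 fold change was 0.51 (SE 0.18, 95% interval 0.11 to 0.92, edgeR unadjusted p = 0.0197, adjusted p = 0.850). It ran from 0.39 without KO replicate 3 to 0.71 without WT replicate 2.

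Itgb6 (ENSMUSG00000026971), whose promoter is shown above, lies on chromosome 2 at 60598292 to 60722643, minus strand. It stood at 6.49, 10.5 and 6.93 CPM across the WT livers and 12.6, 10.3 and 11.7 across the KO livers, from counts of 131 to 289 per library. WT replicate 2 lay above KO replicate 2, and the other WT libraries lay below every KO library. The log2 fold change was 0.53 (SE 0.20, 95% interval 0.07 to 0.99, edgeR unadjusted p = 0.0298, adjusted p = 0.850). It ran from 0.39 without WT replicate 1 to 0.78 without WT replicate 2.

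Bile duct markers also averaged higher in KO liver. Of 9 cholangiocyte markers 8 lay higher in KO liver and 6 had an unadjusted p under 0.05, with a median of 0.38, and 0 passed edgeR's test after adjustment. Their summed level ran from 378 to 552 CPM in WT and from 568 to 732 CPM in KO liver, and none was at 0. Pkhd1, which encodes fibrocystin, stood at a log2 fold change of 0.59 (SE 0.20). Set against the mean of the 9 markers in the same library, a comparison chosen after the values were seen, the KO minus WT difference was 0.21 for Itgb6 and 0.18 for Itgb8 on the log2 scale, against 0.56 and 0.52 for the unscaled log2 CPM. On that relative scale Itgb6 stood at -1.53, -1.34 and -1.74 in WT and at -1.12, -1.53 and -1.36 in KO libraries, and both chains overlapped between the genotypes. In whole liver, more cells of a type and more RNA per cell cannot be told apart.

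Itga8 and Itga11, the alpha chains of mesenchymal cells, varied widely between libraries of 1 genotype. Itga8 (ENSMUSG00000026768; chromosome 2, 12106632 to 12301922, minus strand) stood at 66.6, 141 and 58.3 CPM across the WT livers and 126, 92.2 and 166 across the KO livers. WT replicate 2 was the second highest of the 6, between the KO libraries, and WT replicates 1 and 3 lay below every KO library. The log2 fold change was 0.53 (SE 0.35, 95% interval -0.27 to 1.32, edgeR adjusted p = 0.850). Without WT replicate 2 it was 1.03, and without KO replicate 3 it was 0.29. The libraries low in Itga8, WT replicates 1 and 3 and KO replicate 2, were the ones with high acute phase RNA. The same libraries were the lowest in Itgb6. Itgb8 and Itga11 were lowest in WT replicates 1 and 3 but not low in KO replicate 2. A link was not tested. An antisense gene, E030013I19Rik, overlaps the exons of Itga8 and held at most 2.96% of its CPM in a library. The strand setting of the counting is not given in the sources used here, so reads could pass between them.

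Itga11 (ENSMUSG00000032243; chromosome 9, 62677826 to 62783982, plus strand), the collagen receptor chain of activated fibroblasts, was the scarcest of the 10, with 29 to 83 counts per library. It stood at 1.73, 2.56 and 1.39 CPM across the WT livers and 2.09, 3.03 and 3.70 across the KO livers. KO replicate 1 lay below WT replicate 2, so the groups overlapped. The log2 fold change was 0.63 (SE 0.30, 95% interval -0.08 to 1.33, edgeR adjusted p = 0.850). With these counts and 3 libraries per genotype, a difference of this size lay within the error.

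General markers of mesenchymal cells lay on both sides of 0. Of 12 stellate and mesenchymal markers 5 lay higher in KO liver (median log2 fold change -0.01, 3 at an unadjusted p under 0.05). Their summed level was 1192 to 1513 CPM in WT and 1304 to 1380 CPM in KO liver, with none at 0. Members of that list with the smallest p lay in opposite directions, Cygb (cytoglobin) at 0.31 (SE 0.10) and Lrat, which esterifies retinol, at -0.42 (SE 0.16). Itga8 and Itga11 were also set against the mean of these markers in the same library, again chosen after the values were seen. The KO minus WT difference was 0.62 for Itga8 and 0.63 for Itga11, with overlap. For the unscaled log2 CPM it was 0.60 and 0.62. Portal fibroblast and mesothelial markers had 6 of 8 positive, 2 at an unadjusted p under 0.05 and a median of 0.34. Among them Gpm6a stood at 0.69 (SE 0.24) and Mfap4, a microfibril protein, at 0.96 (SE 0.37). Smooth muscle and myofibroblast markers had 2 of 6 tested genes positive, 0 at an unadjusted p under 0.05 and a median of -0.09, with Mylk, myosin light chain kinase, at 0.29 (SE 0.16) and Tagln, transgelin, at -0.12 (SE 0.10). No marker in these lists passed edgeR's test after adjustment.

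Itgb3 (ENSMUSG00000020689; chromosome 11, 104608000 to 104670476, plus strand), the chain of the αvβ3 receptor and of the platelet fibrinogen receptor, had the largest spread of the 10. It stood at 10.4, 6.30 and 34.8 CPM across the WT livers and 6.49, 9.14 and 4.06 across the KO livers. WT replicate 3 stood alone, and the other 5 libraries lay between 4.06 and 10.4 CPM with the genotypes mixed. The log2 fold change was -1.38 (SE 0.60, 95% interval -2.76 to 0.005, edgeR adjusted p = 0.850), and without WT replicate 3 it was -0.34.

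The same library was high in several cell types. Kupffer cell and macrophage markers summed to 2300 CPM in WT replicate 3 and to 1047 to 1432 CPM in the other libraries. All 11 lay lower in KO liver, at a median log2 fold change of -0.29, with 2 at an unadjusted p under 0.05. Their smallest p fell to Clec4f (-1.03, SE 0.41) and Vsig4 (-0.98, SE 0.39). Endothelial markers summed to 1307 CPM in that library and to 819 to 993 CPM elsewhere, with 10 of 11 negative, 0 at an unadjusted p under 0.05 and a median of -0.15. Lyve1, the hyaluronan receptor, stood at -1.01 (SE 0.47) and Cdh5, endothelial cadherin, at -0.35 (SE 0.22). Platelet markers summed to 15.6 CPM there and to 7.10 to 11.3 CPM elsewhere, with 4 of 5 tested genes negative, 1 at an unadjusted p under 0.05 and a median of -0.16. Treml1 stood at -1.27 (SE 0.44) and Ppbp at -0.83 (SE 0.71). Of the platelet markers below the count filter, Gp1bb was at 0 in every library but KO replicate 2, Gp9 in KO replicate 1 and Gp1ba in KO replicate 3. None of these markers passed edgeR's test after adjustment. Itga2b, the platelet partner of Itgb3, did not follow it, at 3.66, 2.77 and 3.54 CPM across the WT livers and 3.57, 3.30 and 2.45 across the KO livers. Set against the mean of the marker lists, chosen after the values were seen, the Itgb3 difference was -0.64 for Kupffer cells, -0.87 for endothelium and -0.78 for platelets, against -1.07 unscaled. The genotypes overlapped relative to the first 2 lists and not relative to the platelet list. There the WT livers ran from 2.81 to 3.81 and the KO livers from 2.06 to 2.62 on the log2 scale. That was the only comparison of a member with a marker list in which they did not overlap. Of all genes tested, 11.1% did not overlap in CPM. The platelet mean rests on 5 genes at 0.084 to 5.21 CPM, so on few counts.

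**Figure D3:**
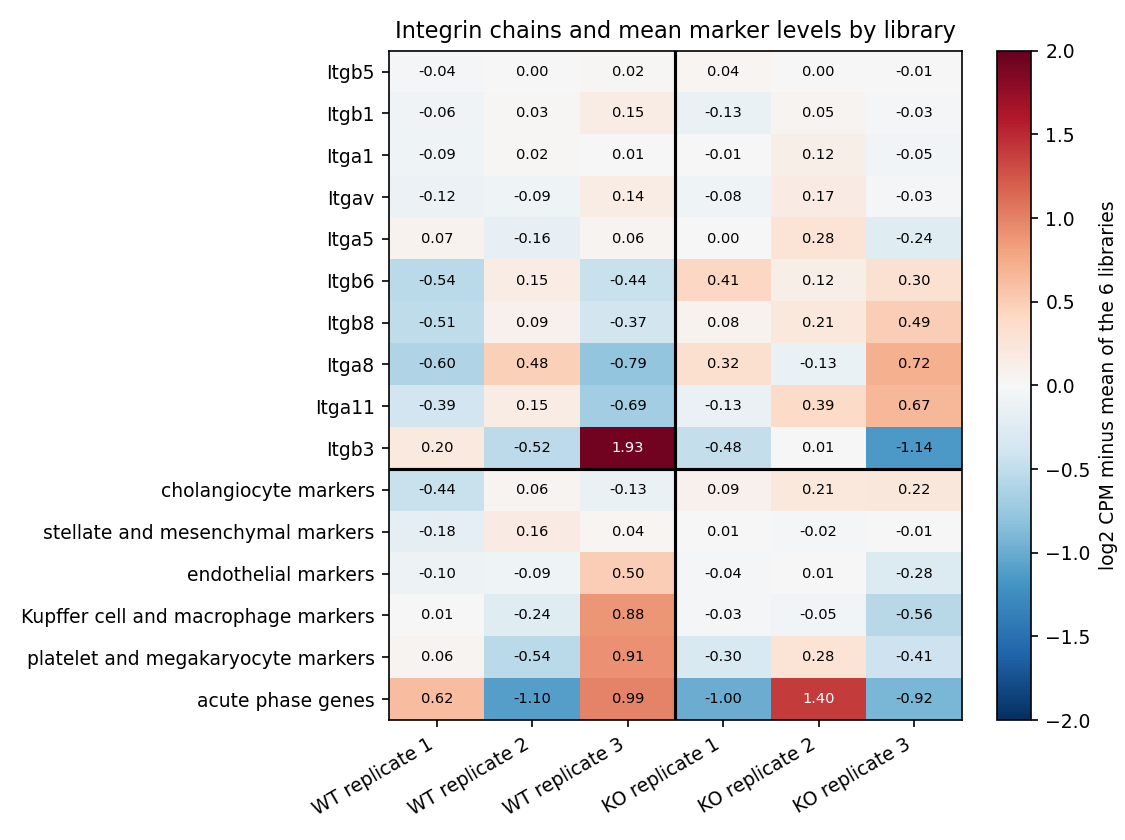
Log2 CPM of each chain, and mean log2 CPM of marker lists below the line, minus their mean over the 6 libraries; red is above and blue below that mean. Itgb3 stands at 1.93 in WT replicate 3, where Kupffer cell markers also have their highest value, and Itgb6, Itgb8, Itga8 and Itga11 are low in WT replicates 1 and 3.

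Likeness between genes over the 6 libraries was measured as the root mean square difference of log2 CPM after each gene was centred on its own mean, among 172 genes of the lists with a mean of at least 1 CPM. Itgb6 lay nearest to Tgfb2 (0.093), the cell adhesion molecule Epcam (0.13) and Bicc1 (0.14), which cholangiocytes express. Itgb8 lay nearest to Bicc1 (0.072), the proteoglycan Lum (0.090), which is on the stellate and mesenchymal list, and Pkhd1 (0.11), which is on the cholangiocyte list. Itga8 lay nearest to Pkhd1 (0.23), Ltbp2 (0.24) and Fbn1 (0.24), and Itga11 to Pkhd1 (0.21), Gpm6a (0.21) and Lum (0.22). Itgb3 lay nearest to Lyve1 (0.24), Vsig4 (0.35) and the neutrophil receptor Cxcr2 (0.38). The 5 steadiest chains lay nearest to other level genes, which any flat gene does: Itgb5 to Vcl, vinculin (0.027), Itga1 to Vcl (0.048), Itgav to Tns1, tensin (0.080), Itgb1 to Itga4 (0.081) and Itga5 to Sharpin (0.10). Genes of 1 library share its scaling and its mix of cells, so these distances describe 6 libraries only.

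Shares within a library do not depend on how libraries are scaled. Among the 5 beta chains that pair with αv, per kilobase, Itgb1 made up 49.2 ± 0.70% in WT and 47.7 ± 1.91% in KO liver (SD, n = 3) and Itgb5 46.9 ± 1.91% and 48.6 ± 1.96%. The 3 scarce chains shared the rest. Itgb8 took 1.17, 1.69 and 1.14% across the WT livers and 1.73, 1.81 and 2.27% across the KO livers. It was the only 1 of the 10 shares whose genotypes kept apart, although the CPM of Itgb8 overlapped. Of all genes tested, 11.1% kept apart in CPM, so this count is near that share. KO replicate 1, whose share lay nearest the WT range, had the lowest Itgb1 of the 6 libraries. The mean share of Itgb8 was 1.33 ± 0.31% in WT and 1.94 ± 0.29% in KO liver (SD, n = 3; two-sided exact permutation p = 0.1, the smallest that 3 against 3 libraries allow). Itgb6 took 0.717 ± 0.20% in WT and 1.06 ± 0.13% in KO liver (SD, n = 3; exact permutation p = 0.2). Itgb3 took 1.19, 0.687 and 3.53% across the WT livers and 0.734, 0.983 and 0.451% across the KO livers (exact permutation p = 0.3).

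Among the 5 alpha chains, Itgav took 34.5 ± 4.71% in WT and 31.4 ± 2.59% in KO liver (SD, n = 3) and Itga5 29.5 ± 4.82% and 26.6 ± 4.88%. Itga8 ranged from 15.3 to 33.1% in WT and from 20.8 to 36.8% in KO libraries, being the most common alpha chain in WT replicate 2 and KO replicate 3 and the third in WT replicates 1 and 3 and KO replicate 2. Itga1 took 13.1 ± 0.72% and 11.9 ± 0.83%, and Itga11 0.691 ± 0.17% and 0.957 ± 0.23% (SD, n = 3). All 10 shares had the same Benjamini-Hochberg adjusted p of 0.5 in the exact permutation test, and none could have passed at this number of libraries.

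**Figure D4:**
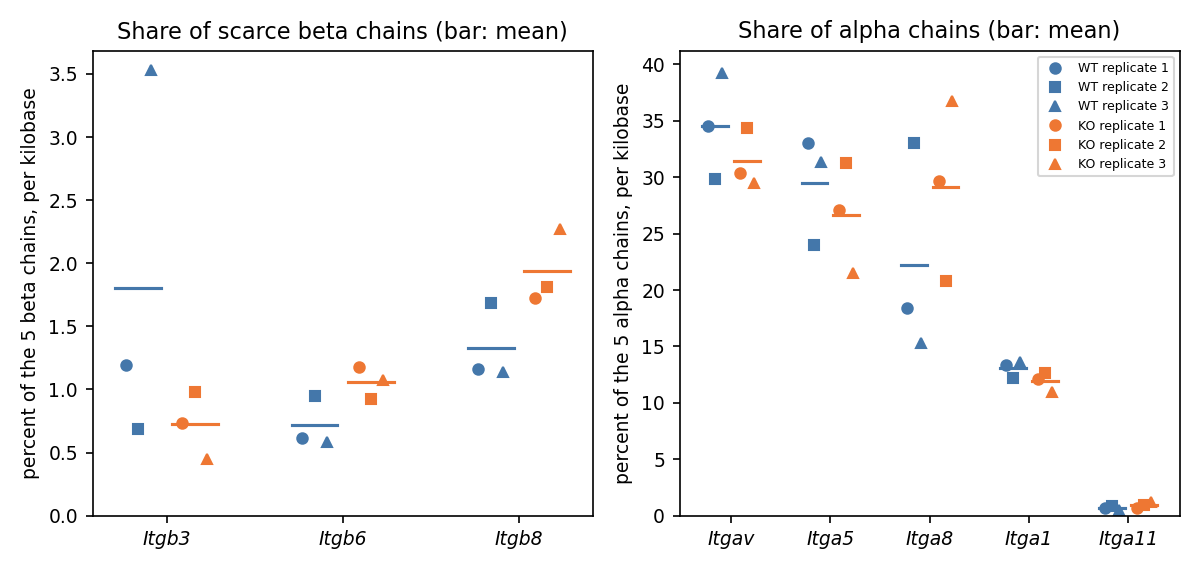
Share of the scarce beta chains (left) and of the alpha chains (right) in the sum of their pool, per kilobase, in percent, 1 point per library with a bar at the mean of 3. Itgb8 is above all WT values in each KO library, and Itga8 ranges from 15.3 to 36.8%.

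The ligands of these receptors gave a mixed picture. Of 20 matrix ligands tested, 15 lay higher in KO liver (median log2 fold change 0.12, 2 at an unadjusted p under 0.05), and 0 passed edgeR's test after adjustment. Fn1, fibronectin, the ligand of α5β1, stood at 3894, 2436 and 4212 CPM across the WT livers and 2609, 3554 and 2457 across the KO livers. Its high libraries were those with high acute phase RNA, whatever the genotype (log2 fold change -0.29, SE 0.25). Vtn, vitronectin, bound by αvβ5, stood at -0.11 (SE 0.19) and Npnt, nephronectin, bound by α8β1, at 0.24 (SE 0.31) from 1.18 to 2.28 CPM. Col1a1 and Col1a2, the type I collagen that α1β1 and α11β1 bind, stood at 0.23 (SE 0.21) and 0.27 (SE 0.19). The ligands with the smallest p were Mfge8, an RGD protein that αvβ3 and αvβ5 bind, which was at 120, 136 and 126 CPM across the WT livers and 153, 162 and 160 across the KO livers (0.32, SE 0.09), and Postn, periostin, at -0.53 (SE 0.18). Mfge8 did not overlap between the genotypes, and its edgeR adjusted p was 0.850.

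Of the 9 genes of the latent TGF-beta complex 5 lay higher in KO liver (median log2 fold change 0.03, 2 at an unadjusted p under 0.05), and 0 passed edgeR's test after adjustment. Tgfb1, a form whose latency peptide αvβ6 and αvβ8 bind, stood at 54.7, 48.3 and 66.6 CPM across the WT livers and 55.9, 51.6 and 53.8 across the KO livers (log2 fold change -0.07, SE 0.12). Tgfb3, whose latency peptide also carries RGD, was at 13.6, 17.2 and 17.1 CPM across the WT livers and 19.2, 20.7 and 22.7 across the KO livers, without overlap (0.39, SE 0.13, edgeR adjusted p = 0.850). Tgfb2, whose latency peptide lacks RGD, was at 7.87, 11.8 and 7.65 CPM across the WT livers and 12.7, 10.6 and 13.6 across the KO livers (0.43, SE 0.19). Furin, the protease that cleaves the TGF-beta precursor, lay lower in KO liver without overlap, at 426, 389 and 407 CPM across the WT livers and 377, 337 and 318 across the KO livers (-0.24, SE 0.11, edgeR adjusted p = 0.850). Ltbp3, which ties latent TGF-beta to the matrix, stood at 0.27 (SE 0.12). Of 10 TGF-beta response genes 6 were positive, 1 at an unadjusted p under 0.05, with a median of 0.03. The feedback gene Pmepa1 stood at 0.33 (SE 0.12) and Ltbp2 at 0.48 (SE 0.24), and 0 passed edgeR's test after adjustment.

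Genes of proteins that act inside the cell on these receptors lay on both sides of 0. Of 29 genes of the adhesion complex 14 had a positive and 15 a negative log2 fold change (median -0.007, 2 at an unadjusted p under 0.05), and 0 passed edgeR's test after adjustment. Lims2, which links integrin-linked kinase to partners, stood at -0.42 (SE 0.14) and Itgb1bp1, which competes with talin for the β1 tail, at -0.31 (SE 0.11). Among 17 other integrin chains 15 were tested, with 8 positive, 1 at an unadjusted p under 0.05 and a median of 0.01. Itgae, the alpha chain of resident lymphocytes and dendritic cells, stood at 0.72 (SE 0.22) and Itgal, the leukocyte chain of LFA-1, at -0.40 (SE 0.23), and 0 passed edgeR's test after adjustment.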

How the data were processed

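Whole-liver RNA of WT and KO mice, 3 libraries per genotype, was enriched for polyadenylated transcripts and sequenced from directional libraries, per the labels' protocols. The deposited table holds raw counts of reads for each Ensembl gene, with no scaling by the authors. The submitters' processing notes name STAR 2.7.6a, featureCounts 1.6.3 and DESeq2 1.30.0, without roles, and the build as GRCm38 or mm10. The strand setting of the counting is not given in the sources used here, nor is the annotation release. Symbols, coordinates and exon lengths came from GENCODE M21 (GRCm38), which held 94.1% of the IDs, and promoter sequences from RefSeq on GRCm38.p6.

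The test was edgeR 4.0.16 (quasi-likelihood, TMM, filterByExpr with a minimum count of 10 and total of 15, genotype alone) in R 4.3.3, with Benjamini-Hochberg adjustment over 17083 genes at 0.05. It was tested on simulated data. Logged levels used a prior count of 2. Shares were compared by an exact permutation test. No libraries agreed within sampling noise (chi-square per degree of freedom at least 12.1). Alternatives were other scalings and filters, DESeq2 1.42.0, limma-voom (limma 3.58.1), the replicate block and each library left out. The members, the lists and the alternatives were chosen with earlier results of these data known. Named were the members, Ephb2, 8 ligands, the 2 genes with the smallest p of each gene list and of the marker lists set beside a member, and, for each member, its nearest list genes. Itga2b, Pf4, Gp5, Furin, Pck1 and the platelet genes at 0 were added after their values were seen. A gene that this rule selects is not reported here.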

Additional observations from a re-analysis of the deposited data

How the results depend on the processing

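No member passed adjustment under any alternative run. The count of genes called was 3 without a count filter, 8 by DESeq2 and 0 to 2 with a library left out. Genes at an unadjusted p under 0.05 numbered 886 (5.19% of those tested). They numbered 1390 without a filter (4.69%), 537 with the replicate block (3.14%) and 452 to 1858 with a library left out (2.59 to 10.7%). Members at an unadjusted p under 0.05 numbered 4 without a filter, 1 with the replicate block and 0 to 5 with a library left out, and members with a positive log2 fold change 5 to 8 with a library left out. The median of the members was 0.12 by library size alone, where the median of all genes was 0.075. The sign changed for Itgb1 (0.0029 by library size), and with a library left out for Itgav (-0.014 without WT replicate 1, -0.039 without KO replicate 2, up to 0.13), Itga1 (-0.00095 and -0.013, the same libraries, up to 0.076), Itgb5 (-0.0043 without WT replicate 1, up to 0.032) and Itga5 (-0.036 without WT replicate 2, -0.11 without KO replicate 2, up to 0.15). Itgb6 and Itgb8 went to 0.21 and 0.18 relative to cholangiocyte markers. The cause was not tested. All 10 shares kept their sign in raw counts and with any library left out, but their size did not hold. With a library left out the KO minus WT difference, in percentage points, ran from -2.37 to -0.498 for Itgb1, 0.590 to 2.5 for Itgb5, -1.64 to -0.216 for Itgb3, 0.276 to 0.459 for Itgb6, 0.441 to 0.786 for Itgb8, -5.50 to -0.782 for Itgav, -1.56 to -0.691 for Itga1, -5.56 to -0.274 for Itga5, 3.0 to 12.3 for Itga8 and 0.156 to 0.390 for Itga11. The replicate block cannot change a difference of means here. Same-numbered libraries did not deviate together (r over genes -0.026, -0.44 and -0.31). The labels do not say whether the numbers pair animals. These values cannot decide it, since each deviation is from a mean of only 3 libraries, so the block is only a check. Depth limits Itga11 most.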
